A study of Mus musculus with 14 samples.

Results

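Integrins and CD44 are the surface receptors with which a T cell holds on to blood vessels, matrix and other cells. The genes described here are 10 members of this group, taken by symbol: the alpha subunit genes Itgal, Itga4, Itgae, Itga1 and Itgav, the beta subunit genes Itgb1, Itgb2, Itgb3 and Itgb7, and Cd44. All 10 were listed in each of 3 tables of mouse RNA-seq, of 15319, 19825 and 15216 genes. The values were measured in CD8+ T cells of E.G7 tumors (a mouse lymphoma line that makes ovalbumin) in 14 libraries, 2 for each of 7 groups. In the first experiment Bcl6+, TIM-3+ and DN tumor-infiltrating lymphocytes (TILs) were sorted at day 21 from tumors under the skin of Bcl6-RFP mice, all 3 populations carrying that reporter genotype; the meaning of DN is not spelled out in the labels. In the second, Prdm1-overexpressing OT-I cells were set against control (Prdm1neg) OT-I cells, and in the third Bcl6-overexpressing against control (Bcl6neg) OT-I cells. OT-I cells are CD8+ T cells whose transgenic receptor recognises an ovalbumin peptide. All 4 OT-I groups had been transferred together with their counterparts into tumor-bearing hosts and were sorted at about day 8. The labels give neither the age or sex of the mice nor the vector that the control cells carried, and do not state whether the libraries of a group came from separate animals or pools, so p-values measure only the spread between these libraries, which may be technical.

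An integrin is a dimer of an alpha and a beta chain, and the pair of chains together decides which ligands it can bind. The beta2 chain with alphaL forms LFA-1, which binds ICAM molecules where a T cell meets its target. The beta1 chain with alpha4 forms VLA-4, a receptor for VCAM-1 and fibronectin, and with alpha1 forms the collagen receptor VLA-1 (CD49a). The beta7 chain with alpha4 directs cells to gut vessels through MAdCAM-1, and with alphaE (CD103) binds E-cadherin on epithelia; alphaE and alpha1 are widely used to mark tissue-resident T cells. The beta3 chain with alphaV binds vitronectin, fibronectin and osteopontin. CD44 binds hyaluronan and is held at a high level by T cells that have met antigen.

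Levels are given as the deposited FPKM (fragments scaled by gene length and by the depth of the library), which can be compared between genes within a library. Fold changes come from the deposited counts, scaled by the TMM method and tested with the edgeR quasi-likelihood test, and adjusted p is the Benjamini-Hochberg value over all genes tested in that fit; a gene was called at an adjusted p under 0.05. Total counts were 18309162 to 22322079 per library. The FPKM of all genes summed to 240093 to 343867 per library, so FPKM levels set side by side between groups carry that difference in scale. Genes were tested where their mean over the libraries of a fit was at least 1 FPKM. All 10 members passed that filter in both OT-I experiments, and 8 passed in TILs, where Itgae and Itga1 were below it. In bulk libraries such as these, fewer cells of a type and less RNA per cell cannot be told apart.

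The labelled cell type and the targeted genes were checked first. Of 8 fixed CD8 T cell markers 7 were listed, none of them at 0 in any group, their sum was 5343 to 5378 CPM (TMM-scaled counts in a library of 1000000) in Bcl6+, 8355 to 8498 CPM in TIM-3+ and 6004 to 6029 CPM in DN TILs. Between Bcl6+ and TIM-3+ cells 6 of the 7 were called lower and 1 higher. The sum was 4861 and 2664 CPM in Prdm1-overexpressing against 3988 and 3081 CPM in control cells, and 5674 and 5223 CPM in Bcl6-overexpressing against 3809 and 3115 CPM in control cells, with 3 of 7 called higher in the last comparison. Cd4 lay between 0.198 and 11.4 CPM in all 14 libraries. It was highest in DN TILs, at 11.4 and 9.88 CPM. It measured 2.53 and 3.91 CPM in Bcl6+ and 2.85 and 2.45 CPM in TIM-3+ TILs. Against DN cells Cd4 was called lower in Bcl6+ and TIM-3+ cells (edgeR adjusted p = 0.014 and 0.0031), as was Cd40lg (0.0033 and 0.0058). Zbtb7b, another CD4 T cell marker, was not called in either. The part of CD4+ T cells in the results for genes highest in DN TILs, such as Itgb7, Itgae and Itga1, was not tested. Prdm1 measured 158 and 195 CPM in Prdm1-overexpressing against 110 and 90.6 CPM in their controls, and Bcl6 measured 94.2 and 67.6 CPM in Bcl6-overexpressing against 4.11 and 3.84 CPM in theirs. Markers of macrophages and monocytes summed to 231 to 274 CPM in Bcl6+, 51.0 to 67.5 CPM in TIM-3+ and 147 to 149 CPM in DN TILs; 7 of 7 tested were called higher in Bcl6+ than in TIM-3+ cells, 4 of 7 higher in Bcl6+ than in DN cells and 3 of 7 lower in TIM-3+ than in DN cells. They summed to 157 to 283 CPM in Prdm1-overexpressing and 415 to 474 CPM in control cells. In Bcl6-overexpressing cells they summed to 550 to 634 CPM, against 139 to 145 CPM in control cells, with 8 of 8 tested called higher. The 2 listed mast cell markers summed to 281 to 289 CPM in Bcl6+, 45.1 to 52.1 CPM in TIM-3+ and 107 to 117 CPM in DN TILs. Both, Kit and Cpa3, were called higher in Bcl6+ than in TIM-3+ cells (log2 fold changes 2.55 and 2.34). Between Bcl6+ and DN cells Kit was called higher (1.38) and Cpa3 was not called (0.11). The 4 listed lymphoma and thymocyte markers summed to 19.4 to 26.0 CPM in Bcl6+ and 2.80 to 4.61 CPM in TIM-3+ TILs. In DN TILs these 4 summed to 17.4 to 18.1 CPM. Dntt, the 1 tested, was called higher in Bcl6+ than in TIM-3+ cells (2.46, edgeR adjusted p = 0.00011). It was called lower in TIM-3+ than in DN cells (-2.35, adjusted p = 0.00025). The part of lymphoma cells in the results was not tested. The 4 red cell markers summed to 41.5 to 46.7 CPM in Bcl6+, 19.8 to 26.8 CPM in TIM-3+ and 69.5 to 74.5 CPM in DN TILs. In Bcl6+ over TIM-3+ cells 3 were called higher and 1 lower, in Bcl6+ over DN cells 0 and 1, and in TIM-3+ over DN cells 0 and 3. The part of red cells in the TIL results was not tested. Myeloid cells carry members of this group too, such as beta2 integrins, alphaV and CD44, and the part of such cells in the results below was not tested. This holds for Itgb1 as well, which took the same order over the TIL populations as the macrophage and mast cell sums.

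**Figure D1:**
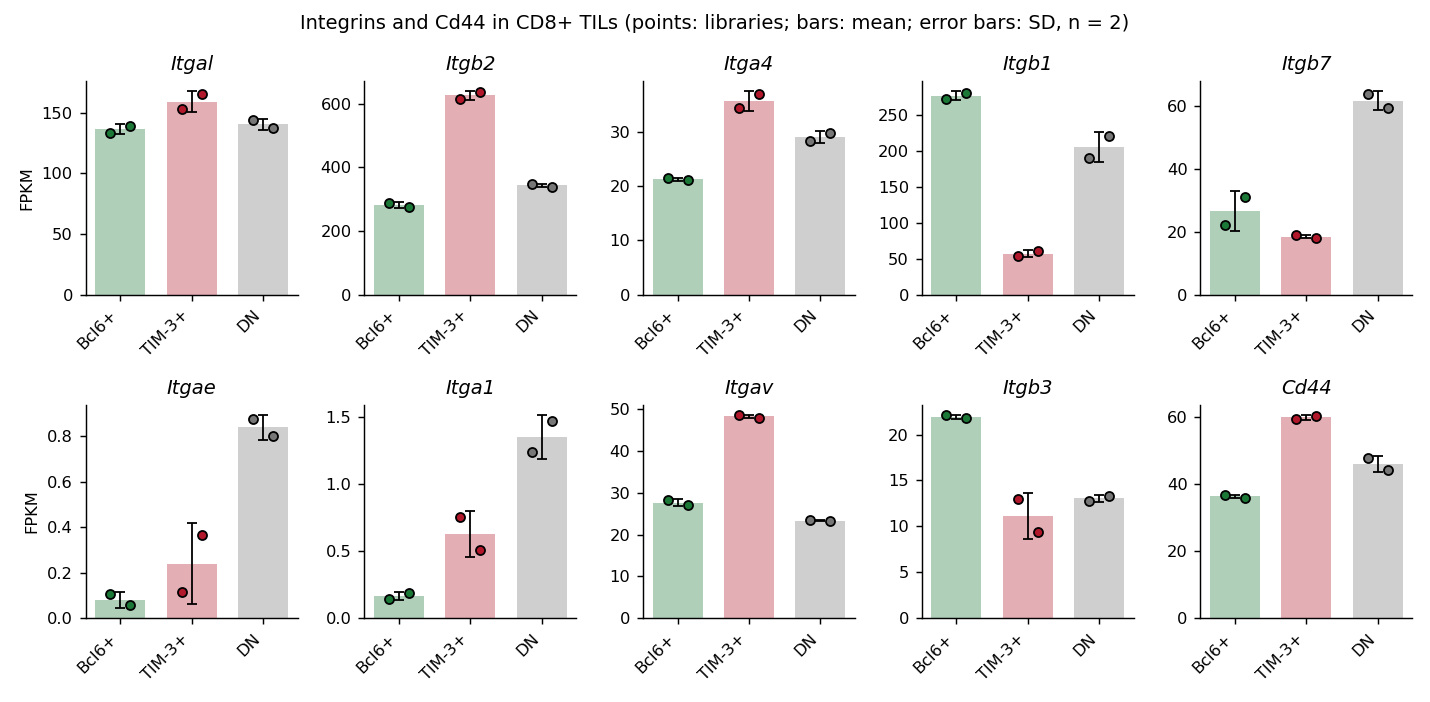
FPKM of the 10 genes in Bcl6+, TIM-3+ and DN TILs, a panel for each gene with its own axis from 0; points are libraries, bars the mean and error bars the SD of 2 libraries. Itgb1 stands lowest in TIM-3+ cells, at 53.3 and 60.7 FPKM, Itgb2 stands highest there, at 616 and 635 FPKM, and Itgb7 stands highest in DN cells, at 63.7 and 59.4 FPKM.

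In TILs the beta1 gene had the largest fold change of the 8 tested members in both comparisons with TIM-3+ cells. Itgb1 measured 273 and 282 FPKM in Bcl6+, 53.3 and 60.7 FPKM in TIM-3+ and 191 and 221 FPKM in DN cells. The 3 ranges did not overlap, with Bcl6+ cells at the top and TIM-3+ cells far below the others. Bcl6+ cells held 5.07 times as much Itgb1 as TIM-3+ cells (log2 fold change 2.34, SE 0.078, edgeR adjusted p = 4.8e-11, n = 2) and 1.36 times as much as DN cells (0.44, SE 0.074, adjusted p = 0.00093), and TIM-3+ cells held 3.73-fold less than DN cells (-1.90, SE 0.077, adjusted p = 1.1e-09). Among all genes tested the size of the first change ranked at percentile 95.3. Itgb1 is annotated as a protein-coding gene on chromosome 8 (128685654 to 128733200, plus strand, mm10).

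Of the 10 members 6 had a promoter entry in RefSeq on GRCm38.p6, which is mm10, and those of the 3 among them with the widest fold changes are shown for reference. Each runs from 250 bases before to 50 bases after the annotated start, 5′ to 3′ on the strand of the gene. Capitals mark matches, on either strand, to short motifs that were searched: TGTGGT (Runx), GTGAAAG (Blimp-1, the protein of Prdm1), TTCNNNGAA (Bcl6), CTTTGA (TCF), CAGACA (Smad) and CCACCC (Klf). Itgb1 lies at chr8:128685404-128685703, Itgb7 at chr15:102231886-102232185 and Itga1 at chr13:115101915-115102214.
Itgb1: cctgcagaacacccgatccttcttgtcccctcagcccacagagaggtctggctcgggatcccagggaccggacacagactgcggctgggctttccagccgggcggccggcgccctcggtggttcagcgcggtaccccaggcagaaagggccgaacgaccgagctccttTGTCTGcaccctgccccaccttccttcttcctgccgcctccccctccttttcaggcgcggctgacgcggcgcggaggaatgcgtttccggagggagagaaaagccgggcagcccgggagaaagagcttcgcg
Itgb7: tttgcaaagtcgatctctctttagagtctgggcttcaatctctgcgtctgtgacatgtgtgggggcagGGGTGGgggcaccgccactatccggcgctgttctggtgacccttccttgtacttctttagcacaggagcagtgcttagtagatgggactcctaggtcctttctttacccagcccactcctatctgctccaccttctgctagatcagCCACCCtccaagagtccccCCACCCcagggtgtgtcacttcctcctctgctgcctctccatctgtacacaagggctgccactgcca
Itga1: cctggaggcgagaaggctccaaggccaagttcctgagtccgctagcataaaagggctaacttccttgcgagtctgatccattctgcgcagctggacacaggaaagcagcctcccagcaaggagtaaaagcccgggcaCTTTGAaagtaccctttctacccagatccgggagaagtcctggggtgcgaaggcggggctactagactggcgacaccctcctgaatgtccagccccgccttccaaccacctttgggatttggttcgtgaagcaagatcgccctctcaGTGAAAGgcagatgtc
The Itgb1 window held the Smad letters in reverse (TGTCTG) once, at -82 to -77 from the start, and letters of this kind occurred in 21.04% of 32851 promoters of the same length. The Itgb7 window held the Klf letters at -36 to -31 and -17 to -12 and their reverse (GGGTGG) at -182 to -177, letters found in 31.48% of all promoters. The Itga1 window held GTGAAAG at 34 to 40 after the start (4.237% of promoters) and CTTTGA at -113 to -108 (16% of promoters). None of these matches overlapped another. The Runx and Bcl6 letters were in none of these 3 windows, against 16.76% and 8.298% of all promoters. A match is a string of letters in the reference, not a measured binding site.

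Itgb2, the beta chain gene of LFA-1, took the opposite order to Itgb1. Itgb2 measured 288 and 276 FPKM in Bcl6+, 616 and 635 FPKM in TIM-3+ and 347 and 339 FPKM in DN cells. TIM-3+ cells stood apart from both other populations, whose ranges did not overlap each other either. Itgb2 was 2.13-fold lower in Bcl6+ than in TIM-3+ cells (log2 fold change -1.09, SE 0.048, edgeR adjusted p = 6.7e-10, n = 2), slightly lower in Bcl6+ than in DN cells (-0.27, SE 0.048, adjusted p = 0.0014) and 1.77 times as high in TIM-3+ as in DN cells (0.82, SE 0.048, adjusted p = 2.9e-08). Its partner Itgal measured 134 and 139 FPKM in Bcl6+, 153 and 165 FPKM in TIM-3+ and 144 and 137 FPKM in DN cells. Bcl6+ and DN libraries overlapped and TIM-3+ libraries were somewhat higher. The Itgal change between Bcl6+ and TIM-3+ cells was small (-0.16, SE 0.056, adjusted p = 0.035) and turned to 0.026 when libraries were scaled to their total counts and to 0.10 with TPM; it did not pass without Bcl6+ replicate 1 (adjusted p = 0.13) or TIM-3+ replicate 2 (adjusted p = 0.25), and over all alternatives its adjusted p ran from 0.0092 to 0.74. Itgal did not pass between Bcl6+ and DN cells (-0.03, adjusted p = 0.80) or between TIM-3+ and DN cells (0.13, adjusted p = 0.10). The ratio of Itgb2 to Itgal FPKM was 2.16 and 1.98 in Bcl6+, 4.03 and 3.84 in TIM-3+ and 2.41 and 2.47 in DN cells.

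The alpha4 and beta7 genes, which encode a dimer, did not move together. Itgb7 measured 22.1 and 31.0 FPKM in Bcl6+, 18.8 and 18.1 FPKM in TIM-3+ and 63.7 and 59.4 FPKM in DN cells. DN cells were high, and the Bcl6+ libraries lay just above the TIM-3+ libraries without overlap. Against DN cells Itgb7 was 2.29-fold lower in Bcl6+ (log2 fold change -1.20, SE 0.14, edgeR adjusted p = 5.6e-05, n = 2) and 3.45-fold lower in TIM-3+ cells (-1.79, SE 0.15, adjusted p = 7.5e-07); these comparisons share the DN libraries. Between Bcl6+ and TIM-3+ cells it was 0.59 higher (SE 0.14, adjusted p = 0.0052), a call that ended without Bcl6+ replicate 2 (0.33, adjusted p = 0.064; 0.00026 to 0.064 over all alternatives). Itga4 took another order, at 21.4 and 21.0 FPKM in Bcl6+, 34.3 and 36.9 FPKM in TIM-3+ and 28.2 and 29.7 FPKM in DN cells. The 3 ranges did not overlap. Itga4 was lower in Bcl6+ than in TIM-3+ cells (-0.69, SE 0.067, adjusted p = 2.0e-06) and than in DN cells (-0.44, SE 0.067, adjusted p = 0.00049), and higher in TIM-3+ cells than in DN cells (0.25, SE 0.067, adjusted p = 0.012). That last call did not pass with total-count scaling (adjusted p = 0.36) or TPM (adjusted p = 0.64), or without TIM-3+ replicate 2 (adjusted p = 0.11) or DN replicate 1 (adjusted p = 0.12), with 0.0010 as the lowest over all alternatives. Of the exonic bases of Itga4, 8.04% are shared with Cerkl on the other strand, and the use of strand in counting is not stated.

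The vitronectin receptor genes also differed in opposite directions between Bcl6+ and TIM-3+ cells. Itgav measured 28.2 and 27.0 FPKM in Bcl6+, 48.5 and 48.0 FPKM in TIM-3+ and 23.4 and 23.3 FPKM in DN cells. TIM-3+ cells were high, and the replicates of each population were close together. It was higher in TIM-3+ cells than in DN cells (log2 fold change 0.999, SE 0.066, edgeR adjusted p = 9.1e-08, n = 2) and lower in Bcl6+ than in TIM-3+ cells (-0.74, SE 0.066, adjusted p = 7.1e-07). The smaller difference between Bcl6+ and DN cells (0.25, SE 0.066, adjusted p = 0.018) did not pass without Bcl6+ replicate 1 (adjusted p = 0.063), DN replicate 1 (adjusted p = 0.11) or DN replicate 2 (adjusted p = 0.13), or on FPKM with limma (0.11), with 0.0016 as the lowest over all alternatives. Itgb3 measured 22.1 and 21.8 FPKM in Bcl6+, 12.9 and 9.4 FPKM in TIM-3+ and 12.8 and 13.3 FPKM in DN cells. Bcl6+ cells were above both others, whose ranges overlapped. Itgb3 was higher in Bcl6+ than in TIM-3+ cells (1.03, SE 0.14, adjusted p = 5.2e-05) and than in DN cells (0.76, SE 0.14, adjusted p = 0.0019). Between TIM-3+ and DN cells it did not pass (-0.27, adjusted p = 0.18), and it passed without TIM-3+ replicate 1 (-0.52, adjusted p = 0.017), with total counts (-0.44) and with TPM (-0.46); the adjusted p ran from 0.017 to 0.84 over all alternatives. Platelets and their precursors carry beta3 with another alpha chain; the 3 listed platelet markers summed to 4.52 to 6.29 CPM in Bcl6+, 1.28 to 2.06 CPM in TIM-3+ and 3.50 to 4.88 CPM in DN cells, and their part in the Itgb3 result was not tested.

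The residency integrin genes were scarce in TILs. Itgae had 11 and 6 counts in Bcl6+, 11 and 35 counts in TIM-3+ and 90 and 83 counts in DN cells, that is 0.107 and 0.0571 FPKM in Bcl6+, 0.115 and 0.365 FPKM in TIM-3+ and 0.876 and 0.80 FPKM in DN cells. DN cells held the most, and the Bcl6+ libraries lay below the TIM-3+ libraries in FPKM, narrowly where each had 11 counts. Itga1 had 60 and 80 counts in Bcl6+, 291 and 197 counts in TIM-3+ and 514 and 617 counts in DN cells. Its ranges did not overlap, with Bcl6+ cells lowest. Neither gene reached a mean of 1 FPKM over the 6 TIL libraries, though Itga1 measured 1.23 and 1.46 FPKM in DN cells. In a fit of all listed genes Itga1 was lower in Bcl6+ than in TIM-3+ cells (log2 fold change -1.92, SE 0.31, edgeR adjusted p = 0.00043) and than in DN cells (-3.04, SE 0.32, adjusted p = 3.8e-05), and lower in TIM-3+ than in DN cells (-1.12, SE 0.29, adjusted p = 0.017). In that fit Itgae was lower in Bcl6+ than in DN cells (-3.35, SE 0.92, adjusted p = 0.041), and did not pass between Bcl6+ and TIM-3+ cells (-1.53, adjusted p = 0.24) or between TIM-3+ and DN cells (-1.81, adjusted p = 0.19). Of the exonic bases of Itga1, 3.68% are shared with the gene model Gm49395 on the same strand.

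Cd44 followed the order of Itgb2 and Itga4. It measured 36.7 and 36.0 FPKM in Bcl6+, 59.3 and 60.4 FPKM in TIM-3+ and 47.7 and 44.2 FPKM in DN cells. The 3 ranges did not overlap. It was lower in Bcl6+ than in TIM-3+ cells (log2 fold change -0.66, SE 0.070, edgeR adjusted p = 4.8e-06, n = 2) and than in DN cells (-0.33, SE 0.070, adjusted p = 0.0060), and higher in TIM-3+ cells than in DN cells (0.33, SE 0.070, adjusted p = 0.0026). Without DN replicate 1 the call between Bcl6+ and DN cells ended (adjusted p = 0.11), and without DN replicate 2 so did the call between TIM-3+ and DN cells (adjusted p = 0.055). With TPM neither passed (adjusted p = 0.074 and 0.19), and with total counts the second did not (0.086); the lowest adjusted p over all alternatives was 0.00016 for the first and 2.7e-05 for the second.

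Counted over the group, 8 of 8 tested members passed between Bcl6+ and TIM-3+ cells, 3 higher (Itgb1, Itgb3 and Itgb7) and 5 lower (Itgb2, Itgav, Itga4, Cd44 and Itgal), where 38.6% of all 9748 genes tested were called, 19.1% higher and 19.6% lower. Between Bcl6+ and DN cells 7 of 8 were called, 3 higher and 4 lower, against 14.2% of all genes, 6.49% higher and 7.69% lower. Between TIM-3+ and DN cells 6 of 8 were called, 4 higher and 2 lower, against 28.2% of all genes, 14.9% higher and 13.2% lower. The median log2 fold change of the 8 members was -0.41, -0.15 and 0.19 in these comparisons, against 0.01, 0.00 and -0.01 over all genes; each population enters 2 of the 3. The balance of calls over all genes depended on scaling. Between Bcl6+ and TIM-3+ cells 1857 genes were called higher and 1907 lower, against 2948 and 1268 with total-count scaling and 3455 and 1123 with TPM. Between TIM-3+ and DN cells 1454 were higher and 1291 lower, against 861 and 2217 with total counts and 819 and 2275 with TPM. Itgb1, Itgb2, Itgav and the Itgb7 difference from DN cells kept their direction and their call under all of these scalings.

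**Figure D2:**
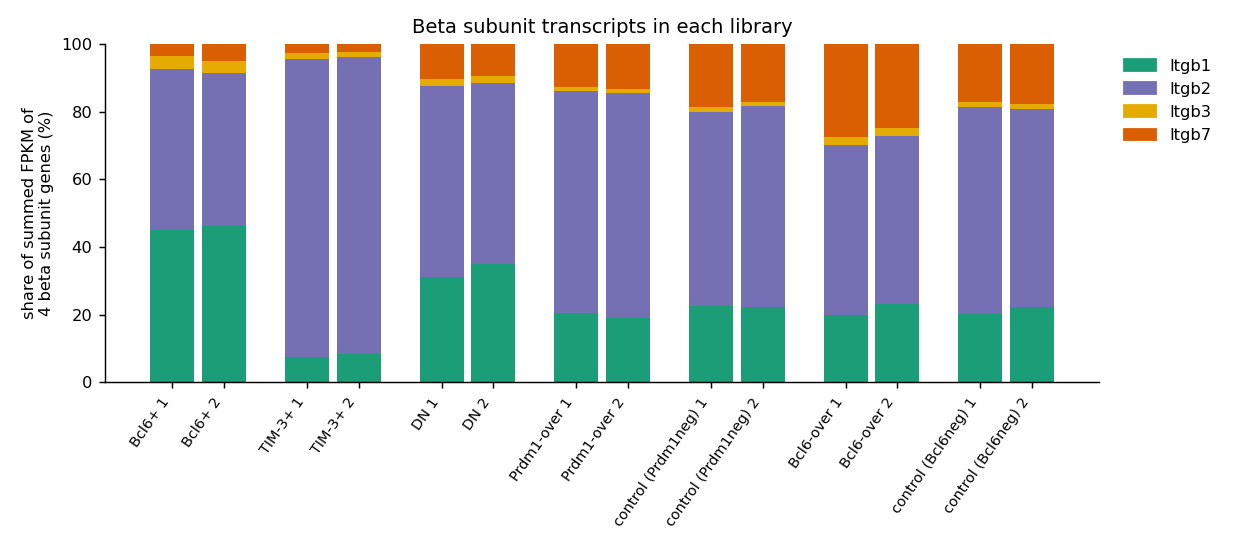
Share, in percent, of the summed FPKM of Itgb1, Itgb2, Itgb3 and Itgb7 that each gene took, as a stacked bar for every library of the 7 groups. Itgb1 took 45.1% and 46.2% in Bcl6+, 7.61% and 8.39% in TIM-3+ and 31.1% and 34.9% in DN TILs, and Itgb2 took 87.9% and 87.8% in TIM-3+ TILs.

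The beta chains were then set against each other within a library, as shares of the summed FPKM of the 4 beta genes. In Bcl6+ cells Itgb1 and Itgb2 took nearly equal shares, at 45.1% and 46.2% for Itgb1 and 47.6% and 45.2% for Itgb2. In TIM-3+ cells Itgb2 took 87.9% and 87.8% and left 7.61% and 8.39% to Itgb1. DN cells lay between them, with 31.1% and 34.9% for Itgb1 and 56.5% and 53.6% for Itgb2, but had the largest Itgb7 share of the TILs, at 10.4% and 9.38%, against 3.66% and 5.08% in Bcl6+ and 2.68% and 2.50% in TIM-3+ cells. The sum of the 4 genes differed less, at 605 and 610 FPKM in Bcl6+, 701 and 723 FPKM in TIM-3+ and 614 and 632 FPKM in DN cells. The FPKM of all genes also summed higher in TIM-3+ cells. That total was 268076 and 268511 in Bcl6+, 334478 and 336448 in TIM-3+ and 285341 and 286144 in DN cells. The sums of the 4 genes are therefore not on a common scale between populations. The ratio of Itgb1 to Itga4 FPKM was 12.7 and 13.4 in Bcl6+, 1.55 and 1.64 in TIM-3+ and 6.76 and 7.43 in DN cells. These shares and ratios are descriptions of transcripts and were not tested.

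By mean FPKM, the 4 most abundant members in Bcl6+ cells were Itgb2, Itgb1, Itgal and Cd44, of which the first 2 overlapped between libraries and the others did not. In TIM-3+ cells the order was Itgb2, Itgal, Cd44 and Itgb1, with Cd44 and Itgb1 overlapping, and in DN cells Itgb2, Itgb1, Itgal and Itgb7, with no overlap between neighbours. In all 4 OT-I groups Itgb2 came first, then Itgb1, Itgal and Itgb7 in some order, then Cd44. Itga1 and Itgae were the lowest in all 7 groups, Itgae last in 6 of them and Itga1 last in Bcl6-overexpressing cells. Itgb7 in OT-I cells lay between 114.5 and 214 FPKM; the tables were normalized separately, so this was not tested against TILs.

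**Figure D3:**
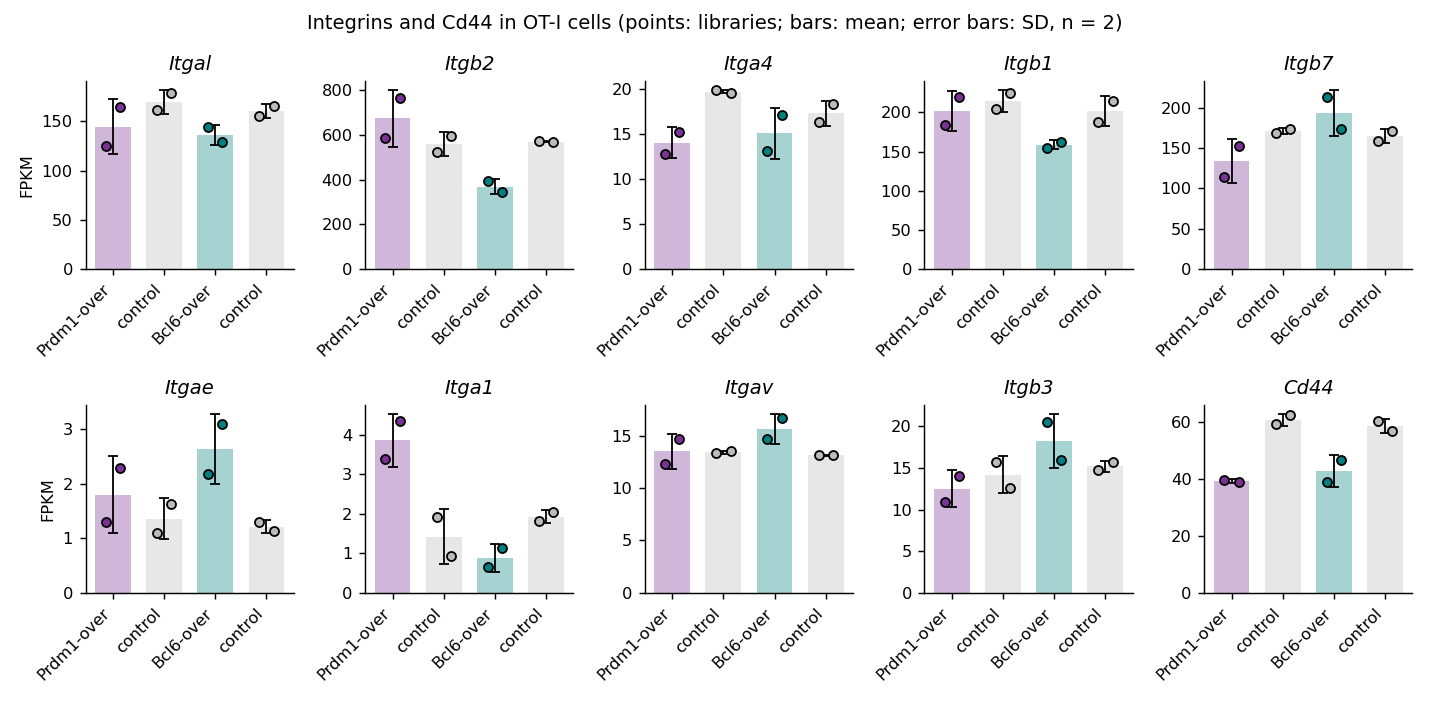
FPKM of the 10 genes in Prdm1-overexpressing and control and in Bcl6-overexpressing and control OT-I cells, a panel for each gene with its own axis from 0; points are libraries, bars the mean and error bars the SD of 2 libraries. Itga1 stands at 3.39 and 4.33 FPKM in Prdm1-overexpressing cells, above its controls, and at 0.643 and 1.14 FPKM in Bcl6-overexpressing cells, below its controls.

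In the Prdm1 experiment no member was called. Of the 10 tested, 0 passed in edgeR, where 1.36% of 9947 genes were called, 1.16% higher and 0.201% lower. An unadjusted p under 0.05 in edgeR was found for 3 members, and its share over all genes was not counted. DESeq2 called 1 member and 586 of all genes, and limma on FPKM called 0 members and 134 of all genes. The largest difference was in Itga1, which measured 3.39 and 4.33 FPKM in Prdm1-overexpressing cells and 1.92 and 0.935 FPKM in control cells. Both Prdm1-overexpressing libraries lay above both controls, and the controls lay further apart from each other, as a ratio, than the Prdm1-overexpressing libraries did. The log2 fold change of Itga1 was 1.53 (SE 0.34, edgeR adjusted p = 0.084, n = 2); with DESeq2 it was 1.496 (adjusted p = 0.00064), with DESeq2 size factors in edgeR 1.496 (adjusted p = 0.029), with total counts 1.44 (adjusted p = 0.028), with TPM and limma 1.39 (adjusted p = 0.0035), and without Prdm1-overexpressing replicate 1 it was 1.66 (adjusted p = 0.011). Over all its alternatives the adjusted p of Itga1 ran from 1.7e-09, with the replicate number as a block, to 0.23.

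The other members of the Prdm1 experiment had smaller differences. Cd44 measured 39.6 and 38.8 FPKM in Prdm1-overexpressing cells and 59.3 and 62.3 FPKM in control cells. The groups did not overlap, and the log2 fold change of -0.53 (SE 0.15) had an edgeR adjusted p of 0.13, which ran from 0.0060 to 0.40 over all alternatives. Itga4 measured 12.8 and 15.2 FPKM in Prdm1-overexpressing and 19.8 and 19.6 FPKM in control cells, also without overlap (-0.39, SE 0.15, adjusted p = 0.23). Itgb2 measured 585 and 764 FPKM in Prdm1-overexpressing and 523 and 597 FPKM in control cells, which overlapped (0.36, SE 0.17, adjusted p = 0.30, and 0.024 to 0.81 over all alternatives). Itgb7 measured 114.5 and 153 FPKM in Prdm1-overexpressing and 169 and 174 FPKM in control cells, without overlap (-0.26, SE 0.17, adjusted p = 0.45). Itgae overlapped between the groups, at 1.31 and 2.30 FPKM in Prdm1-overexpressing and 1.09 and 1.63 FPKM in control cells (0.50, SE 0.43, adjusted p = 0.58). Itgal, Itgav, Itgb3 and Itgb1 had log2 fold changes of -0.13, 0.11, -0.09 and 0.01 and adjusted p between 0.72 and 0.98. The ratio of Itgb2 to Itgal FPKM was 4.69 and 4.64 in Prdm1-overexpressing and 3.25 and 3.35 in control cells. Over all genes 115 were called higher and 20 lower, against 191 and 84 with DESeq2 size factors, 174 and 120 with total counts and 340 and 269 with TPM. The median log2 fold change of the 10 members was -0.04, against 0.02 over all genes.

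In the Bcl6 experiment 5 of 10 members were called, 1 higher (Itgae) and 4 lower (Itga1, Itgb2, Cd44 and Itgb1), where 48.8% of 9669 genes were called, 25.4% higher and 23.4% lower; the share of members was thus close to that of all genes. Itgb2 measured 392 and 346 FPKM in Bcl6-overexpressing and 573 and 568 FPKM in control cells. The groups were well apart. It was 1.64-fold lower in Bcl6-overexpressing cells (log2 fold change -0.71, SE 0.17, edgeR adjusted p = 0.0016, n = 2). Itga1 measured 0.643 and 1.14 FPKM in Bcl6-overexpressing and 1.81 and 2.05 FPKM in control cells, and was 2.29-fold lower without overlap (-1.20, SE 0.26, adjusted p = 0.00088). Itgb2 and Itga1 kept their call under every alternative in which they were tested.

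Cd44, Itgb1 and Itgae had calls that rested on both control libraries. Cd44 measured 38.9 and 46.7 FPKM in Bcl6-overexpressing and 60.4 and 56.9 FPKM in control cells, without overlap (log2 fold change -0.54, SE 0.17, edgeR adjusted p = 0.012); without control replicate 1 or 2 the adjusted p was 0.13 or 0.074, and on FPKM with limma at a pseudocount of 0.1 it was 0.050, with 5.4e-05 as the lowest over all alternatives. Itgb1 measured 154 and 163 FPKM in Bcl6-overexpressing and 188 and 215 FPKM in control cells, without overlap (-0.43, SE 0.17, adjusted p = 0.039); it did not pass without control replicate 1 or 2 (adjusted p = 0.11 or 0.36), on FPKM with limma at a pseudocount of 1 (0.14) or with no filter on low genes (0.11), with 0.00028 as the lowest over all alternatives. Itgae measured 2.19 and 3.10 FPKM in Bcl6-overexpressing and 1.302 and 1.13 FPKM in control cells, without overlap, so it was 2.05-fold higher with Bcl6 overexpression (1.04, SE 0.34, adjusted p = 0.016). It did not pass without Bcl6-overexpressing replicate 2 (0.76, adjusted p = 0.11), without control replicate 1 (adjusted p = 0.058) or 2 (adjusted p = 0.11), or with TPM (0.59, adjusted p = 0.098), with 0.0048 as the lowest over all alternatives. Dendritic cells also make alphaE; dendritic markers summed to 376 to 488 CPM in Bcl6-overexpressing and 301 to 318 CPM in control cells, with 1 of 3 tested called higher and 1 lower, and their part in the Itgae result was not tested.

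The other 5 members did not pass between Bcl6-overexpressing and control cells. Itgb7 measured 214 and 174 FPKM in Bcl6-overexpressing and 159 and 171 FPKM in control cells (log2 fold change 0.14, adjusted p = 0.52). Itgal measured 144 and 129 FPKM in Bcl6-overexpressing and 155 and 165 FPKM in control cells (-0.32, adjusted p = 0.12), and Itga4 measured 13.1 and 17.0 FPKM in Bcl6-overexpressing and 16.3 and 18.2 FPKM in control cells (-0.29, adjusted p = 0.19). Both did pass with TPM, at -0.66 (adjusted p = 0.0016) for Itgal and -0.62 (adjusted p = 0.0081) for Itga4; Itgal also passed without Bcl6-overexpressing replicate 1 (-0.40, adjusted p = 0.0094) and Itga4 without replicate 2 (-0.49, adjusted p = 0.0089). Itgb3 and Itgav, at 0.18 and 0.17, had adjusted p of 0.45 and 0.43. As a share of the 4 beta genes, Itgb2 took 50.2% and 49.5% in Bcl6-overexpressing and 61.3% and 58.5% in control cells, and Itgb7 took 27.3% and 24.9% in Bcl6-overexpressing and 17.0% and 17.7% in control cells. The median log2 fold change of the 10 members was -0.30, against 0.00 over all genes. Over all genes 2459 were called higher and 2261 lower, against 1741 and 3784 with TPM. Neutrophil and red cell markers moved with Bcl6 overexpression as well: 3 listed neutrophil markers summed to 27.9 to 28.1 CPM in Bcl6-overexpressing and 1.04 to 3.22 CPM in control cells, where S100a8 was at 0, and 4 red cell markers to 14.9 to 19.9 CPM in Bcl6-overexpressing and 0.99 to 1.18 CPM in control cells, where Hba-a1, Hba-a2 and Hbb-bs were at 0. Their part in the results was not tested.

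**Figure D4:**
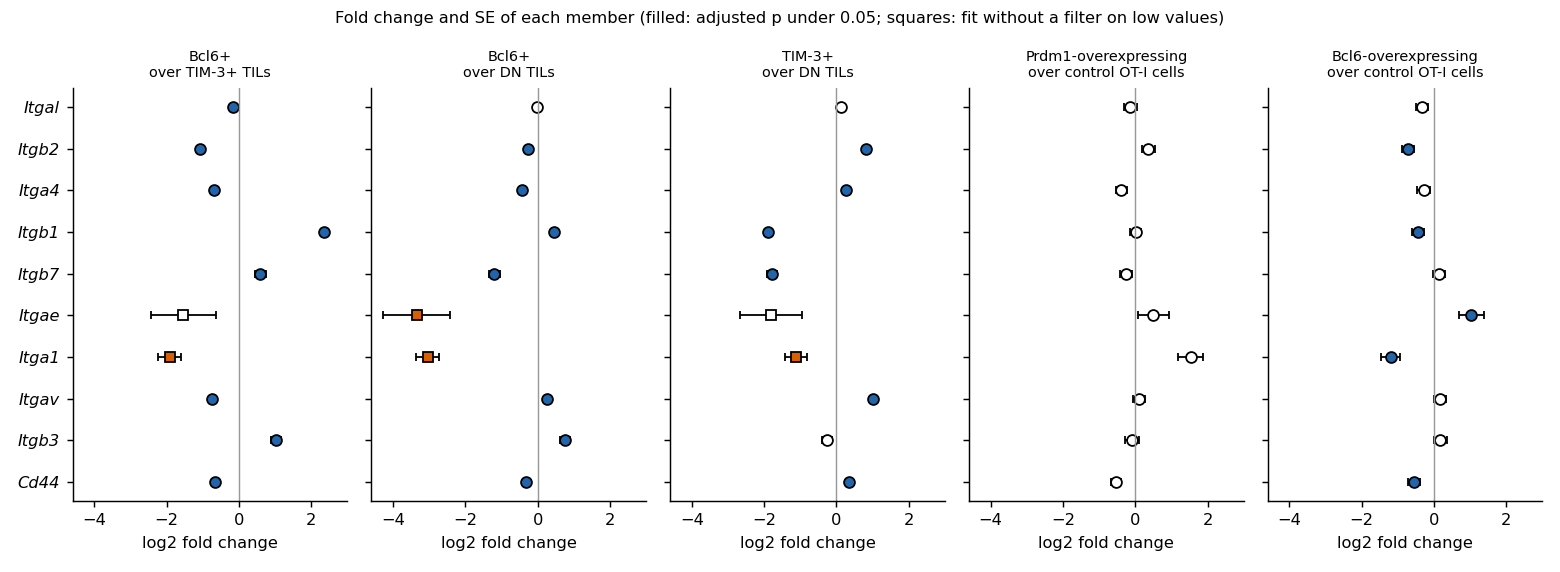
Log2 fold change of each of the 10 genes with its SE in the 5 comparisons, a panel for each; filled points have an edgeR adjusted p under 0.05, and squares come from the fit without a filter on low genes. Itgb1 runs from 2.34 in Bcl6+ over TIM-3+ TILs to -1.90 in TIM-3+ over DN TILs, and Itga1 stands at 1.53, open, in Prdm1-overexpressing and at -1.20, filled, in Bcl6-overexpressing over control OT-I cells.

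Genes around the 10 members were counted by lists. The shares of all genes called are given first, to be read beside these counts and the marker counts above. Between Bcl6+ and TIM-3+ cells 19.1% were higher and 19.6% lower, and between Bcl6+ and DN cells 6.49% and 7.69%. Between TIM-3+ and DN cells 14.9% were higher and 13.2% lower. With Prdm1 overexpression 1.16% were higher and 0.201% lower, and with Bcl6 overexpression 25.4% and 23.4%. In the Prdm1 experiment DESeq2 called 586 of all 9947 genes and limma on FPKM 134. Counts at an unadjusted p under 0.05 are given without a share over all genes, which was not counted. Other integrin subunits were mostly below the filter, with 4 of 17 tested in TILs. Among these Itgb8, whose product pairs with alphaV and frees TGF-beta from its latent form, measured 114 ± 10 CPM in Bcl6+, 33.1 ± 5.6 CPM in TIM-3+ and 25.0 ± 3.6 CPM in DN cells (SD, n = 2). It was higher in Bcl6+ than in TIM-3+ cells (log2 fold change 1.79, SE 0.17, edgeR adjusted p = 1.4e-06) and than in DN cells (2.19, SE 0.17, adjusted p = 1.1e-06), and was the only subunit of that list called in either; between TIM-3+ and DN cells 0 of the 4 were called in edgeR, with 1 at an unadjusted p under 0.05, and 0 by DESeq2 or limma. In OT-I cells Itgax, the alphaX chain that dendritic cells and effector T cells carry, was lower in Prdm1-overexpressing cells (-0.95, SE 0.16, adjusted p = 0.046), as the only one of 6 called. DESeq2 called 1 of the 6 and limma on FPKM 0. Dendritic markers, Itgax among them, summed to 243 to 366 CPM in Prdm1-overexpressing and 625 to 679 CPM in control cells. The part of dendritic cells in the Itgax result was not tested. Itga5, the alpha chain of the fibronectin receptor, was higher in Bcl6-overexpressing cells (1.15, SE 0.38, adjusted p = 0.016), as the only one of 5 called.

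**Figure D5:**
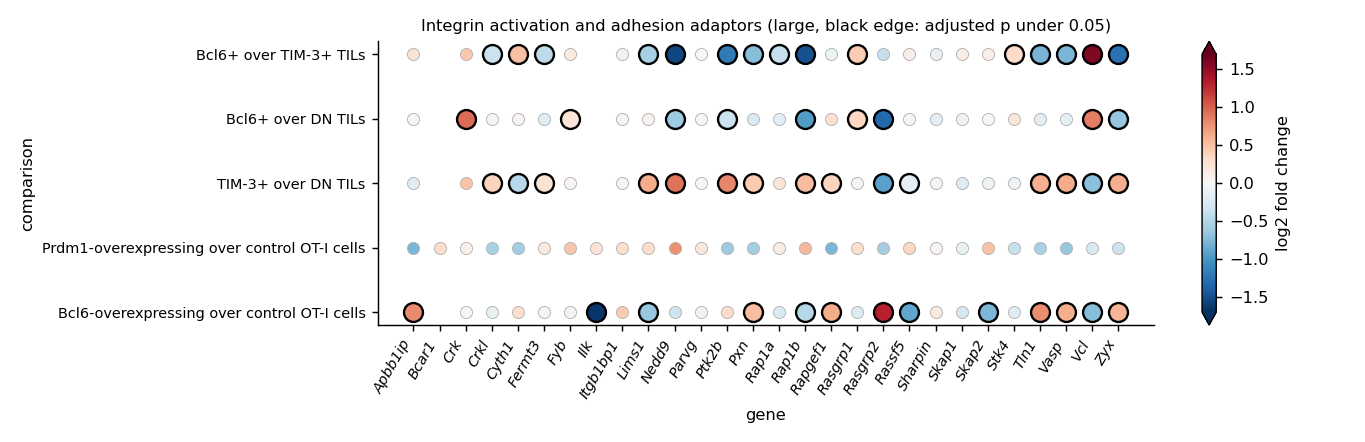
Log2 fold change, as color, of the integrin activation and adhesion adaptor genes (columns) in the 5 comparisons (rows); large points with a black edge have an edgeR adjusted p under 0.05. Nedd9, Zyx, Ptk2b and Rap1b are lower in Bcl6+ than in TIM-3+ TILs, at -1.55, -1.27, -1.20 and -1.49, and no point is called in the Prdm1 experiment.

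Adaptors that activate integrins or tie them to actin differed in both directions. Between Bcl6+ and TIM-3+ cells 11 of 26 tested were lower and 4 higher, where 19.6% of all genes were called lower and 19.1% higher. Nedd9, a docking protein below beta1 integrins and the T cell receptor, measured 225 ± 9.4 CPM in Bcl6+, 660 ± 33 CPM in TIM-3+ and 347 ± 3.0 CPM in DN cells. Zyx, the gene of the focal adhesion protein zyxin, measured 342 ± 18 CPM in Bcl6+, 825 ± 6.9 CPM in TIM-3+ and 538 ± 37 CPM in DN cells, and Rap1b, a small GTPase that switches LFA-1 on, measured 67.0 ± 0.39 CPM in Bcl6+, 188 ± 3.7 CPM in TIM-3+ and 130 ± 6.2 CPM in DN cells. Ptk2b, the kinase Pyk2, was lower in Bcl6+ than in TIM-3+ cells (log2 fold change -1.20, edgeR adjusted p = 4.0e-08). Between Bcl6+ and DN cells 5 of 26 were lower, with Rap1b at -0.95, Zyx at -0.66 and Nedd9 at -0.62, and 4 higher, with Rasgrp1 at 0.37. Between TIM-3+ and DN cells 11 of 26 were higher, with Nedd9 at 0.93, Ptk2b at 0.83, Lims1 at 0.63 and Zyx at 0.62, and 4 lower. The median of the list was -0.12, -0.04 and 0.14 in these 3 comparisons.

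In the Prdm1 experiment 0 of 28 adaptors were called in edgeR. DESeq2 called 3 of them, against 586 of all 9947 genes, and limma called 0, against 134. An unadjusted p under 0.05 in edgeR was found for 15, and its share over all genes was not counted. Between Bcl6-overexpressing and control cells 7 of 27 were higher and 6 lower, where 25.4% of all genes were called higher and 23.4% lower. Tln1, the gene of talin, which binds beta chain tails and opens the integrin, was higher (log2 fold change 0.79, SE 0.17, edgeR adjusted p = 0.00056), as were Rasgrp2, an exchange factor for Rap1 (1.32, adjusted p = 5.3e-05), and Rapgef1 (0.63, adjusted p = 0.0040). Rassf5, the gene of the Rap1 effector RAPL, was lower (-0.89, adjusted p = 0.00016).

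Ligands were few in these cells. Spp1, the gene of osteopontin, which binds alphaV integrins and CD44, measured 610 ± 31 CPM in Bcl6+, 1493 ± 5.0 CPM in TIM-3+ and 664 ± 5.8 CPM in DN cells. It was lower in Bcl6+ than in TIM-3+ cells (log2 fold change -1.29, SE 0.054, edgeR adjusted p = 4.0e-10), higher in TIM-3+ cells than in DN cells (1.17, SE 0.054, adjusted p = 3.0e-09) and lower in Bcl6-overexpressing than in control cells (-1.59, SE 0.17, adjusted p = 2.2e-07). In all, 2 of 6 ligands tested were higher and 3 lower in Bcl6+ than in TIM-3+ cells, 1 and 2 in Bcl6+ against DN cells, 1 and 1 in TIM-3+ against DN cells, 1 and 0 of 8 in Prdm1-overexpressing cells, and 1 and 4 of 7 in Bcl6-overexpressing cells. Icam1, the gene of a main LFA-1 ligand, was lower in Bcl6+ than in TIM-3+ cells (-0.57) and than in DN cells (-0.42) and in Bcl6-overexpressing than in control cells (-0.44, adjusted p = 0.040). Icam2, the gene of another ICAM molecule, was higher in Bcl6+ than in TIM-3+ cells (1.23, edgeR adjusted p = 0.00044). It was lower in TIM-3+ than in DN cells (-1.20, adjusted p = 0.00086). It was not called between Bcl6+ and DN cells (0.03) or in either OT-I experiment. Mmp9, a gelatinase that docks on CD44, was the single ligand-list gene called in the Prdm1 experiment, at 44.1 ± 9.8 CPM in Prdm1-overexpressing and 0.213 ± 0.23 CPM in control cells (7.68, SE 0.59, adjusted p = 0.0059). Col1a1, the collagen gene at -4.97 in Bcl6-overexpressing cells, measured 0.711 ± 0.54 CPM there and 22.5 ± 4.0 CPM in control cells, and all 7 stromal and endothelial markers together summed to 64.3 to 68.1 CPM in Bcl6-overexpressing and 114.5 to 125 CPM in control cells.

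Among CD44 partners, 4 of 12 tested were higher and 5 lower in Bcl6+ than in TIM-3+ cells. Cd74, the invariant chain that can signal through CD44, measured 558 ± 22 CPM in Bcl6+, 45.2 ± 2.1 CPM in TIM-3+ and 312 ± 9.8 CPM in DN cells, and it was also higher in Bcl6-overexpressing than in control cells (log2 fold change 1.83, SE 0.18, edgeR adjusted p = 5.8e-08); antigen-presenting cells express it strongly. Hmmr, a second hyaluronan receptor that also serves mitosis, was lower in Bcl6+ than in TIM-3+ cells (-2.05, adjusted p = 3.6e-06), and so was Ezr, the gene of ezrin, which links CD44 to actin (-0.62, adjusted p = 2.9e-06). Between Bcl6+ and DN cells 3 of 12 were higher and 2 lower, with St3gal1 at 0.96 and Selplg at -0.28, and between TIM-3+ and DN cells 4 were higher and 3 lower, with Hmmr at 1.97, Ezr at 0.46 and Cd74 at -2.79. In Bcl6-overexpressing cells 4 of 11 were higher, with Arhgef1 at 1.40, and 4 lower, with Msn, the gene of moesin, at -1.06 (adjusted p = 3.7e-05).

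TGF-beta raises alphaE in T cells, so its input genes were counted too. Between Bcl6+ and TIM-3+ cells 3 of 12 were higher and 3 lower, between Bcl6+ and DN cells 2 and 3, between TIM-3+ and DN cells 1 and 4, and between Bcl6-overexpressing and control cells 4 and 2 of 13. Lrrc32, which holds latent TGF-beta at the surface, measured 77.5 ± 5.0 CPM in Bcl6+, 1.03 ± 0.14 CPM in TIM-3+ and 8.63 ± 3.3 CPM in DN cells, and its log2 fold change in Bcl6-overexpressing over control cells was 2.29 (SE 0.42, edgeR adjusted p = 0.00014). Tgfbr2, the ligand-binding receptor chain, was lower in Bcl6+ than in TIM-3+ cells (-0.70, adjusted p = 5.0e-06) and than in DN cells (-0.25, adjusted p = 0.037). Tgfbr3 went the other way, higher in Bcl6+ than in TIM-3+ cells (3.67, edgeR adjusted p = 0.00039) and than in DN cells (1.84, adjusted p = 0.047). With Bcl6 overexpression Tgfbr3 was higher (1.78, adjusted p = 0.0016) and Tgfbr2 was not called (-0.22). In the Prdm1 experiment 0 of 12 were called in edgeR, with 2 at an unadjusted p under 0.05, 1 called by DESeq2 and 0 by limma.

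Residency and egress genes were called in both directions. Cxcr6, whose product keeps T cells near CXCL16 in tissue, was lower in Bcl6+ than in TIM-3+ cells (log2 fold change -2.45, edgeR adjusted p = 9.8e-13) and than in DN cells (-1.35, adjusted p = 1.5e-09), higher in Prdm1-overexpressing (1.22, adjusted p = 0.022) and lower in Bcl6-overexpressing than in control cells (-2.17, adjusted p = 3.6e-09). Cxcr3 (1.75, adjusted p = 1.6e-08) and Cd69 (1.09, adjusted p = 7.7e-08) went the other way, higher in Bcl6+ than in TIM-3+ cells. S1pr1, the receptor with which T cells leave tissue, was lower than in DN cells both in Bcl6+ (-2.16) and in TIM-3+ cells (-2.93). Over the list 5 of 10 tested were higher and 3 lower in Bcl6+ than in TIM-3+ cells, 2 and 5 in Bcl6+ against DN cells, 3 and 6 in TIM-3+ against DN cells, 1 and 1 of 8 in Prdm1-overexpressing and 3 and 4 of 9 in Bcl6-overexpressing cells. Klf2, a transcription factor of the list, was higher in Bcl6-overexpressing than in control cells (2.23, adjusted p = 9.8e-08). Cd69 (-1.17, adjusted p = 2.5e-05) and Rgs1 (-1.07, adjusted p = 3.5e-05) were lower there.

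For each member the 3 genes of most similar pattern were found by Pearson r of log2(CPM + 1) over the 14 libraries, after the mean of each experiment was taken off, among 8942 or 8943 other genes. Itgb1 was most like Tnfrsf26 (r = 0.988), Cd83 (0.978) and Gramd3 (0.974), and Itgb2 most like Wdr1 (0.988), Gtdc1 and Trpv2. Itgb7 was most like Bcl2 (0.964), Stat2 (0.955) and S1pr1 (0.920), Itgav most like Cblb (0.960), and Cd44 most like Gzmk (0.935). Itga1 followed Abcb1a (0.938), Itga4 followed Ppp1r15b (0.933), Itgb3 followed Syt11 (0.927), Itgal followed Hnrnpm (0.915) and Itgae followed Mycbp2 (0.881). These are descriptions over libraries that share groups and depth, with no test.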

How the data were processed

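The files give, per the file headers, both raw counts and FPKM, made and deposited by the authors. Per the submitters' processing notes the build was mm10; tools named are featureCounts and DESeq2 for all libraries, with Bowtie2, Subread and edgeR for TILs and HISAT2 and RSEM for OT-I cells. Their versions, roles and use of strand are not given in the sources read here. Counts were whole numbers, and every gene of the TIL and Bcl6 tables had a summed count of 20 or more. The 10 members and the gene lists were chosen with earlier results of these data known.

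Counts were tested with edgeR 4.0.16 (R 4.3.3; quasi-likelihood, TMM scaling, two-sided) where the mean FPKM was 1 or more, the 6 TIL libraries in 1 fit and each OT-I experiment of 4 libraries in its own. SE was taken as |log2 fold change| divided by the root of F. The biological coefficient of variation was 0.149 in TILs, 0.227 with Prdm1 and 0.164 with Bcl6 overexpression. Alternatives were DESeq2 1.42.0, limma 3.58.1 on log2(FPKM + 1) or with a pseudocount of 0.1, TPM computed from FPKM, other scalings and filters, a replicate block, and leaving out each library. The tests were tried on simulated data. Named were all members and, per list and comparison, genes taken mostly from the up to 4 called with the smallest p. Not every such gene was named, so the counts of a list stand for the whole of it. Positions are from GENCODE M21 (mm10) and promoters from RefSeq. No label ties equal replicate numbers to an animal, and the fits had no block. The libraries of each group differed by more than sampling noise. FPKM and counts share reads, so they are not independent measures. A gene of the CD44 partner list is not reported here.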

Additional observations from a re-analysis of the deposited data

How the results depend on the processing

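Over 592 combinations of member, comparison and alternative, 543 stayed on their side of the threshold, 32 lost the call, 15 gained it and 2 called values turned direction; among members that were not called in the main setting, 24 values took the other sign and stayed uncalled. Itgal between Bcl6+ and TIM-3+ TILs turned to 0.026 with total counts and 0.10 with TPM. The median log2 fold change of all genes was 0.01 between Bcl6+ and TIM-3+ TILs, -0.01 between TIM-3+ and DN TILs and 0.00 for Bcl6 overexpression. It stood at 0.20 and -0.18 in the TIL comparisons with total counts, at 0.26 and -0.19 with TPM, and for Bcl6 overexpression at -0.32 with TPM and -0.15 with all listed genes tested. In the Prdm1 experiment, where 0 members were called, 1 was called with DESeq2 size factors, total counts, TPM or the DESeq2 Wald test, and 0 to 1 without each replicate. In the Bcl6 experiment, where 5 were called, 3 were called with limma on log2(FPKM + 0.1), 3 at a mean of at least 5 FPKM, where Itgae and Itga1 were no longer tested, and 2 to 6 without each replicate, 2 without either control. In TILs the members called ran over all alternatives from 7 to 9 between Bcl6+ and TIM-3+, 5 to 9 between Bcl6+ and DN and 5 to 7 between TIM-3+ and DN cells; 10 were tested when no filter was used.

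Counts over all genes moved by more than 1.5 times in some settings. Between Bcl6+ and DN TILs 1383 fell to 735 or 766 without DN replicate 1 or 2, and between TIM-3+ and DN TILs 2745 fell to 1696 or 1734. In the Prdm1 experiment the main 135 became 275 with DESeq2 size factors, 294 with total counts, 609 with TPM, 586 with DESeq2, 44 without a filter, 244 at a mean of at least 5 FPKM, 643 without Prdm1-overexpressing replicate 1, and 7 or 3 without control replicate 1 or 2. The cause of these shifts was not tested.

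With the replicate number as a block, the Prdm1 experiment gave 1659 genes and 3 members, Itga1 (1.61), Itgb2 (0.36, adjusted p = 0.024) and Cd44 (-0.53, adjusted p = 0.0060), and Itgb1 in the Bcl6 experiment no longer passed (-0.43, adjusted p = 0.069). Same-numbered samples correlated at 0.28 in the Prdm1, -0.06 in the Bcl6 and 0.01 to 0.04 in the TIL experiment. With 2 pairs and no label that ties a number to an animal or host, the numbers were not taken as pairs; whether same-numbered cells shared a host was not tested. Itgae had 6 to 90 counts per TIL library, where counting error alone is large.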
